A study of Mus musculus with 40 samples.

Results

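Serpin protease inhibitor genes were followed across skin, sorted mast cells and cultured mast cells of the mouse. A member is a row of the deposited table whose symbol begins with Serpin and that reached at least 1 FPKM (fragments scaled to transcript length and to library size) in at least 4 of the 40 libraries. Of 63 serpin rows among the 23812 rows of the table, 34 were members. The other 29 stayed at or below 1.15 FPKM in every library, and 2 of these (Serpinb6b and Serpinb9b) passed 1 FPKM in some library without reaching the rule. The members comprise 10 of 25 clade A genes, 8 of 15 clade B genes of the chromosome 13 cluster, 10 of 12 clade B genes of the chromosome 1 cluster, and 6 of 11 genes of clades C to I.

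The 40 libraries form 10 groups of 4. DTR skin and DTR sorted mast cells came from a cross of 2 lines. One parent carries the allele Gt(ROSA)26Sortm1(HBEGF)Awai/J on C57BL/6, and the other carries Mrgprdtm1.1(cre)And/Mmnc on B6.129S1(Cg). Cre from the Mrgprd locus switches on a diphtheria toxin (DT) receptor in MrgprD sensory neurons of the cross. Their treatment label is DT (IP) with Acetone:Olive oil (4:1). Cre skin and Cre sorted mast cells came from the Cre parent line alone. Both genotypes carry the Mrgprd Cre allele, and the treatment text gives DT to both for 3 to 4 weeks, while the label of the Cre samples names only Acetone:Olive oil (4:1), so it is unsettled whether Cre mice received toxin. The strains also differ, so DTR against Cre holds both the ablation and the crossed background, and these cannot be told apart. β-alanine skin and PBS skin came from C57BL/6J ears on which 50 mM β-alanine or PBS was put once a day on 2 days. NS102 48 h cells were peritoneal mast cells from C57BL/6J mice kept 48 h with 50 µM NS102, a kainate receptor blocker, and vehicle 48 h cells were their control. Glutamate 6 h cells spent 6 h in glutamate-free Tyrode's buffer with 4 mM glutamate added, against vehicle 6 h cells. Skin and sorted cells are both labelled epidermal, although the design text describes whole ear for the skin. No label gives age or sex, and no label says that replicates came from separate animals or cultures, so the p-values measure only the spread between these libraries, which may be technical.

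Serpins are suicide inhibitors: a protease that cleaves the exposed reactive centre loop stays bound to it and is trapped as the serpin changes shape. Clade A members are mostly secreted, and the mouse Serpina3 genes are a local expansion of a single human gene for antichymotrypsin. Clade B members act inside cells, where they guard cells against proteases leaking from granules and lysosomes, and several are made by keratinocytes. Mast cells store chymases, tryptases, cathepsin G and carboxypeptidase in their granules. The remaining clades hold regulators of thrombin, plasminogen activators and complement, and members such as Serpinh1 that inhibit no protease.

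Total FPKM per library ranged from 117574 to 508485, and Pearson correlations between libraries of a group ranged from 0.939 to 0.999. The deposited values hold no read counts, so the depth behind a value is not known and counting errors cannot be computed. The 11 mast cell markers summed to 18222 to 29875 FPKM in DTR sorted cells, 9895 to 14686 FPKM in Cre sorted cells and 65889 to 94669 FPKM in the cultured cells. Keratin and dermal markers were present in all skin groups, so the skin libraries were not epidermis alone: the 7 fibroblast markers summed to 1597 to 2240.2 FPKM there. Some sorted libraries stood apart. The fibroblast markers summed to 23.6, 29.3, 129 and 36.6 FPKM in the 4 DTR sorted libraries and 4.29, 5.94, 52.6 and 373 FPKM in the 4 Cre sorted libraries. The red blood cell markers summed to 664 FPKM in Cre sorted library 2 and to at most 1.98 FPKM in the other sorted libraries. Sex-linked genes differed between groups of the design. The X-linked Xist lay at 24.5 to 37.1 FPKM in DTR and Cre skin, 0 to 0.0281 FPKM in the sorted cells and 0.00813 to 0.101 FPKM in β-alanine and PBS skin. In the cultured cells Xist lay at 1.49 to 3.30 FPKM. The Y-linked Ddx3y was listed at 0 in DTR and Cre skin and in all cultured cells, and lay at 4.42 to 8.38 FPKM in the sorted cells and 11.8 to 19.2 FPKM in β-alanine and PBS skin. Both members of each pair of DTR and Cre or treated and control groups were alike in this, but sorted cells differed from skin and from cultured cells, and the skin of DTR and Cre mice from that of C57BL/6J mice, so sex cannot be told apart from these other contrasts. Mrgprd itself never passed 0.158 FPKM, so its level checks no label. In bulk samples, fewer cells of a type and less RNA per cell cannot be told apart.

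Skin and mast cells carried different serpins. In every skin group 29 or 30 members averaged at least 1 FPKM, against 8 in DTR sorted cells, 6 in Cre sorted cells and 5 or 6 in each cultured group. The same count was not made over all rows. In 25 of the 34 members (73.5%) all 16 skin libraries lay above all 24 mast cell libraries, compared with 54.4% of the 13689 table rows that met the same filter. The exceptions were Serpinb1a, Serpinb1b, Serpinb1c, Serpinb6a, Serpinb6e, Serpinb9, Serpina3f, Serpina3g and Serpini1. Of the 34 members, 21 had no mast cell library at 1 FPKM and met the filter through skin alone. For these the order was nearly fixed in advance. Serpinb5 was the most abundant serpin of skin, with 17.5% to 20.8% of the summed serpin FPKM of a group. Serpinb1a was the most abundant in all mast cell groups, with 75.2% to 97.2%.

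**Figure D1:**
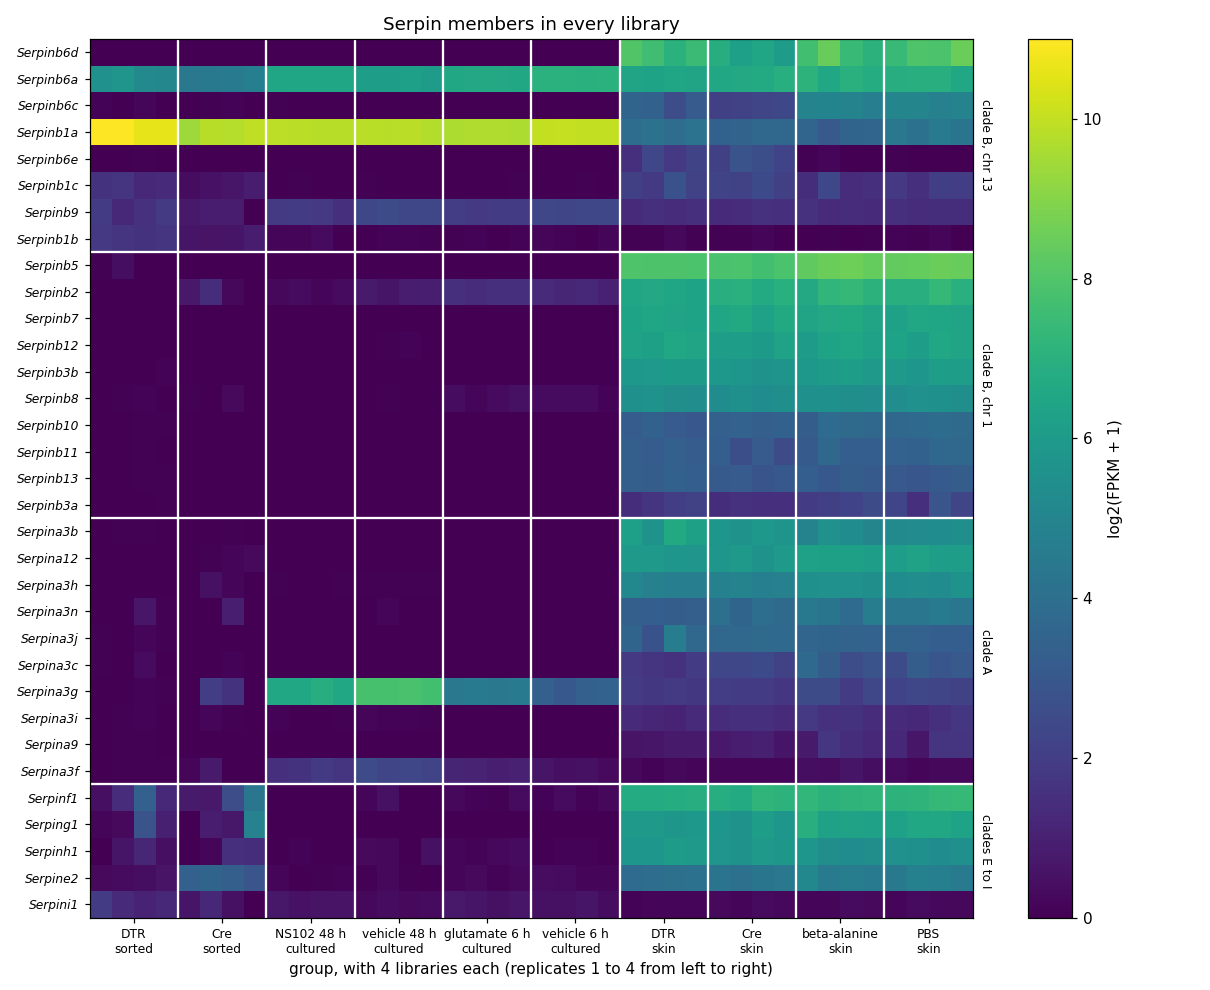
Each of the 33 rows is a serpin member and each column a library, coloured by log2(FPKM + 1). White lines separate the 10 groups and the clades. The 10 chromosome 1 members are bright in skin and near 0 in nearly all mast cell libraries, while Serpinb1a is brightest in mast cells and Serpina3g in cultured cells.

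The 10 members of the chromosome 1 cluster are mostly serpins of squamous epithelium, and all 10 were higher in skin. Of these 10, 9 had no mast cell library at 1 FPKM, so they met the filter through skin alone. For those 9 the order was nearly fixed in advance. Over all rows that met the same filter, 54.4% had all skin libraries above all mast cell libraries. Serpinb5 (maspin, at chr1:108757756-108779925 in mm9), an epithelial serpin that inhibits no protease, measured 247, 242, 241 and 232 FPKM in DTR skin, 228, 238, 203 and 237 FPKM in Cre skin, 317, 365, 379 and 334 FPKM in β-alanine skin and 327, 339, 364 and 347 FPKM in PBS skin. In the 4 DTR sorted libraries it measured 0.0361, 0.343, 0.0211 and 0.0152 FPKM, and in the 4 Cre sorted libraries 0, 0.0119, 0 and 0 FPKM. It was listed at 0 in all 16 cultured libraries. Next in skin came Serpinb2 (plasminogen activator inhibitor 2), with group means of 89.4 FPKM in DTR skin, 117 FPKM in Cre skin, 136 FPKM in β-alanine skin and 131 FPKM in PBS skin. It was also the only member of this cluster to average 1 FPKM in mast cells. Serpinb7, a keratinocyte serpin whose human gene is mutated in an inherited palmoplantar keratosis, lay at 77.1 to 102 FPKM over the 16 skin libraries. Serpinb12 lay at 61.9 to 97.02 FPKM over them. Serpinb3b, 1 of several Serpinb3 genes related to the human squamous cell carcinoma antigens, lay at 48.7 to 71.3 FPKM. These 3 genes reached at most 0.0748 FPKM in any mast cell library. Serpinb8, whose human counterpart inhibits furin, was steady at 39.7 to 49.4 FPKM in skin. The others were lower in skin: Serpinb10 at 6.97 to 13.8 FPKM, Serpinb11 at 4.81 to 12.3 FPKM, Serpinb13, whose human counterpart inhibits lysosomal cathepsins, at 6.23 to 9.58 FPKM and Serpinb3a at 1.69 to 6.36 FPKM.

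Clade A was split between skin and cultured mast cells. Serpina3b (29.04 to 101 FPKM over the 16 skin libraries), Serpina12 (48.95 to 79.6 FPKM), Serpina3h (24.9 to 47.2 FPKM), Serpina3n (8.35 to 23.9 FPKM) and Serpina3j (5.87 to 23.4 FPKM) led in skin. Serpina12 is vaspin, first known from fat and also made in epidermis, and Serpina3n is an acute phase inhibitor. Serpina3c (2.0 to 12.4 FPKM), Serpina3i (1.08 to 2.55 FPKM) and Serpina9 (0.505 to 2.34 FPKM) were lower. In mast cells all 8 of these stayed below 1 FPKM in every library, so they met the filter through skin alone. Serpina3g, an intracellular inhibitor of cysteine cathepsins, was the reverse: 2.35 to 4.93 FPKM in skin and 7.24 to 229 FPKM in cultured cells. Serpina3f, its neighbour, lay at 0.0644 to 0.525 FPKM in skin and 0.225 to 4.80 FPKM in cultured cells.

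Among the serpins of clades E to I, 5 of 6 had all skin libraries above all mast cell libraries. The share was 54.4% over all rows that met the same filter. Serpinf1 (pigment epithelium-derived factor, which inhibits blood vessel growth) measured 106, 109, 111 and 114 FPKM in DTR skin and 116, 104, 145 and 137 FPKM in Cre skin. Serping1, the C1 inhibitor of complement, measured 58.3, 61.3, 55.7 and 56.8 FPKM in DTR skin and 54.3, 48.6, 68.1 and 54.1 FPKM in Cre skin. Serpinh1, the collagen chaperone of the endoplasmic reticulum, measured 53.3, 54.4, 65.4 and 61.4 FPKM in DTR skin and 52.8, 49.5, 61.2 and 55.8 FPKM in Cre skin. None of the 3 separated DTR from Cre skin past the test. In sorted cells their values differed widely between libraries. Serping1 measured 0.105, 0.214, 6.06 and 0.972 FPKM in the DTR sorted libraries and 0, 0.787, 0.617 and 28.2 FPKM in the Cre sorted libraries. Serpinf1 measured 0.348, 1.62, 9.22 and 1.38 FPKM in the DTR sorted libraries and 0.711, 0.704, 5.05 and 19.04 FPKM in the Cre sorted libraries. Both were highest in DTR library 3 and Cre library 4, the libraries of each genotype with the highest fibroblast sum, and the part of these markers was not tested. Serpinh1 measured 0.0280, 0.528, 1.28 and 0.354 FPKM in the DTR sorted libraries and 0, 0.111, 1.84 and 1.75 FPKM in the Cre sorted libraries. In cultured cells Serping1 was listed at 0 in all 16 libraries and Serpinf1 and Serpinh1 stayed at or below 0.417 FPKM. Serpini1 (neuroserpin, an inhibitor of tissue plasminogen activator) was at or below 0.268 FPKM in every skin library and highest in DTR sorted cells.

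The chromosome 13 cluster held 5 of the 12 members that averaged at least 1 FPKM in some mast cell group. Serpinb1a (chr13:32933960-32943054 in mm9) inhibits neutrophil elastase, cathepsin G and other chymotrypsin-like proteases. It measured 2319, 2411, 1521 and 1520.5 FPKM in DTR sorted cells and 668, 899, 881 and 972 FPKM in Cre sorted cells. By mean FPKM it ranked 5 of all 23812 rows in DTR sorted cells and 19 in Cre sorted cells, between 32 and 69 in the cultured groups, and between 3866 and 6015 in skin. Serpinb6a, a cathepsin G inhibitor, was abundant in both materials, with 82.3 to 139 FPKM in skin, 20.1 to 52.5 FPKM in sorted cells and 67.6 to 128 FPKM in cultured cells. Serpinb9, the inhibitor of granzyme B, stayed at 1.53 to 1.95 FPKM in skin, and lay at 0.00723 to 2.75 FPKM in sorted and 1.90 to 4.68 FPKM in cultured cells. Serpinb1b and Serpinb1c, close copies of Serpinb1a, differed in place: Serpinb1c reached 1.64 to 5.90 FPKM in skin, where Serpinb1b did not pass 0.175 FPKM. Reads of such copies can be assigned to the wrong gene. Of the 50-base words of their longest GENCODE M21 coding transcripts, 3.424% for Serpinb1a, 3.522% for Serpinb1b and 6.629% for Serpinb1c also occurred in other genes. Over the 33 members matched there, 12 shared no word, 6 shared more than 10%, and Serpina3g shared the most with 16.02%.

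**Figure D2:**
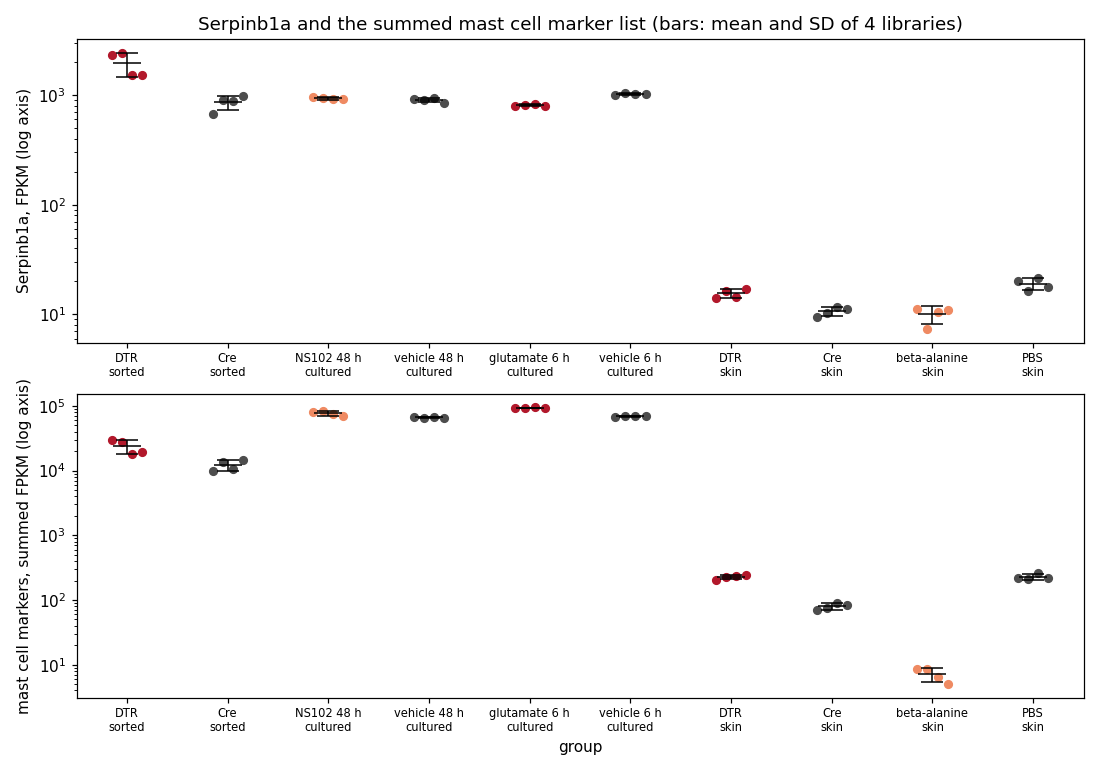
The upper panel gives Serpinb1a and the lower panel the summed FPKM of the 11 mast cell markers, both on log axes. Points are libraries and bars the mean and SD of 4. Serpinb1a in β-alanine skin sits at 7.37 to 11.2 FPKM, below PBS skin at 16.2 to 21.6 FPKM, while the marker sum sits at 5.08 to 8.51 FPKM against 213 to 262 FPKM in PBS skin.

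Sorted mast cells were tested against skin of the same genotype, with the sex-linked genes on opposite sides. In the DTR genotype 31 members could be tested, and 3 were higher and 27 lower in sorted cells, where 90.3% of all tested genes passed (8.86% higher and 81.4% lower). In the Cre genotype 29 could be tested, and 1 was higher and 27 lower, where 89.8% passed (9.85% higher and 80% lower). These shares (96.8% and 96.6% of members) lie near the table's own. Of the members tested, 22 in the DTR and 21 in the Cre genotype had no sorted library at 1 FPKM, so they entered through skin alone and had to differ. The same holds for Serpinb1b and Serpini1, which had no DTR skin library at 1 FPKM. Serpinb1a was higher by 6.85 ± 0.20 on the log2 scale in the DTR genotype (SE, adjusted p = 5.86e-12) and by 6.18 ± 0.13 in the Cre genotype (adjusted p = 4.94e-10, limma). In the DTR genotype Serpinb1b and Serpini1 were also higher, by 1.59 and 1.26. Serpinb5 was lower, with log2 differences of -7.78 and -7.82 in the 2 genotypes. The whole table moved too: the log2 difference of the median gene was -1.33 in DTR and -1.42 in Cre sorted cells. Centred on the median of each library, 7 members were higher and 20 lower in DTR sorted cells, and 3 were higher and 22 lower in Cre sorted cells. Of all genes 84.4% then passed in the DTR genotype (49% higher and 35.3% lower) and 73.1% in the Cre genotype (40.4% higher and 32.7% lower). Under that centring Serpinb9 (1.73), Serpinb1c (0.81), Serpinb6a (0.51) and Serpina3i (0.38) became higher in DTR sorted cells, and Serpine2 (0.60) and Serpinb9 (0.72) in Cre sorted cells.

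The skin serpins with the largest such differences were nearly undetected after sorting. Serpinb6d, a close relative of Serpinb6a, measured 0, 0.0227, 0 and 0 FPKM in DTR sorted cells against 257, 197, 130.4 and 180.4 FPKM in DTR skin, and 0, 0, 0 and 0.0181 FPKM in Cre sorted cells against 116, 72.95, 90.6 and 66.01 FPKM in Cre skin. Serpinb7 measured 0, 0, 0 and 0 FPKM in DTR sorted cells against 81.5, 90.2, 86.01 and 82.6 FPKM in DTR skin. In the Cre genotype it measured 0, 0, 0.0289 and 0 FPKM in sorted cells against 88.4, 102, 77.7 and 101 FPKM in skin. None of these groups overlapped. Serpinb2 measured 0, 0.0163, 0.0280 and 0.0202 FPKM in DTR sorted cells and 0.663, 1.69, 0.193 and 0 FPKM in Cre sorted cells, where 1 library stood above 1 FPKM. Serpinb12 was listed at 0.0199, 0, 0 and 0 FPKM in DTR sorted cells against 80.9, 76.2, 97.02 and 84.9 FPKM in DTR skin. It was listed at 0 in all 4 Cre sorted libraries, against 71.0, 71.9, 61.9 and 78.9 FPKM in Cre skin. Serpina3b, a skin member of the Serpina3 group, measured 0, 0.0309, 0.0355 and 0.0192 FPKM in DTR sorted cells against 73.5, 49.2, 101 and 74.6 FPKM in DTR skin. Serpinb3b measured 0, 0, 0.0171 and 0 FPKM in Cre sorted cells against 57.03, 53.4, 48.7 and 50.99 FPKM in Cre skin.

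Loss of MrgprD neurons was examined first in skin, DTR against Cre. Of 29 members tested, 9 (31%) passed, 5 higher and 4 lower, where 13.6% of the 12607 genes tested passed (7.38% higher and 6.25% lower). All 29 were at 1 FPKM or more in all 8 libraries. The median log2 difference was 0.014 over the members and 0.014 over all genes. The 9 members that passed were spread over 3 clusters: Serpinb6c, Serpinb6d, Serpinb1a and Serpinb6a on chromosome 13, Serpinb13, Serpinb3b and Serpinb2 on chromosome 1, and Serpina3c and Serpina3n in clade A. None of the 4 tested members of clades E to I passed.

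Serpinb6d and Serpinb6c, neighbouring copies of the Serpinb6 group at chr13:33753273-33763454 and chr13:33971684-33997577 in mm9, had the largest differences. Serpinb6d measured 257, 197, 130.4 and 180.4 FPKM in DTR skin and 116, 72.95, 90.6 and 66.01 FPKM in Cre skin. The groups did not overlap, and it was higher by 1.13 ± 0.21 on the log2 scale (SE, adjusted p = 0.00942, limma). Serpinb6c measured 10.8, 9.74, 5.15 and 7.99 FPKM in DTR skin and 3.23, 3.43, 3.94 and 4.27 FPKM in Cre skin, a difference of 0.96 ± 0.17 (adjusted p = 0.00885). Serpinb6e, between them in the cluster, measured 1.82, 4.06, 2.55 and 3.80 FPKM in DTR skin and 3.30, 6.14, 5.16 and 3.60 FPKM in Cre skin, and its difference of -0.46 ± 0.20 did not pass (adjusted p = 0.15). Serpinb6a fell slightly, with 83.8, 82.3, 87.9 and 85.9 FPKM in DTR skin and 93.8, 97.4, 103 and 118 FPKM in Cre skin (-0.27 ± 0.064, adjusted p = 0.0241).

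Levels of Serpinb6c and Serpinb6e in DTR and Cre skin did not overlap those in the 2 C57BL/6J groups. Those of Serpinb6d overlapped in DTR skin, while Cre skin lay below all 8 C57BL/6J libraries. Serpinb6c measured 29.4, 30.3, 28.9 and 24.9 FPKM in β-alanine skin and 30.8, 31.5, 26.4 and 29.6 FPKM in PBS skin, so that DTR skin lay between Cre skin and the C57BL/6J groups. Serpinb6d measured 202, 346, 173 and 134 FPKM in β-alanine skin and 171, 246, 235 and 372 FPKM in PBS skin. Serpinb6e was nearly undetected there, at 0.0343, 0.121, 0.0164 and 0.0133 FPKM in β-alanine skin and 0.0531, 0.0249, 0.0224 and 0.0126 FPKM in PBS skin, although all 8 DTR and Cre libraries were at 1.82 FPKM or more. Strain, sex-linked expression and treatment differ between these pairs of groups and cannot be told apart, and no test between them was made. These copies share sequence: 10.41% of the 50-base words of Serpinb6c, 3.112% of those of Serpinb6d and 0.9689% of those of Serpinb6e occur in other genes.

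**Figure D3:**
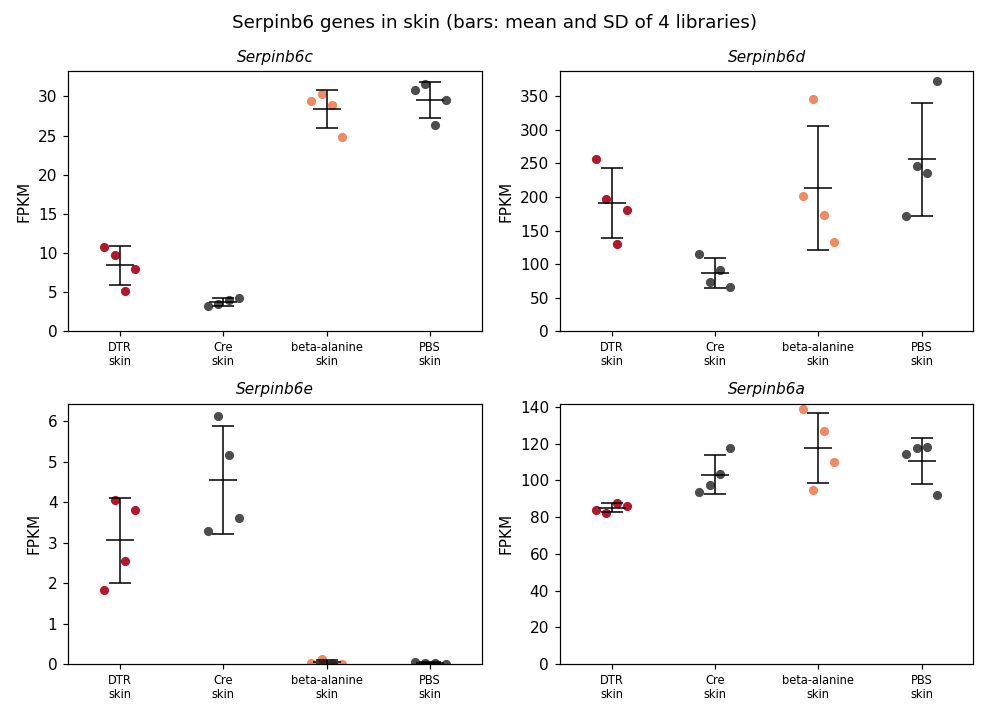
Points are libraries, and bars give the mean and SD of 4, in FPKM on axes from 0. Serpinb6c is at 5.15 to 10.8 FPKM in DTR skin, 3.23 to 4.27 FPKM in Cre skin and 24.9 to 31.5 FPKM in the C57BL/6J groups, and Serpinb6e is near 0 in the C57BL/6J groups only.

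Serpinb1a, the mast cell serpin, rose in DTR skin with 14.3, 16.4, 14.5 and 16.98 FPKM against 9.54, 10.3, 11.7 and 11.2 FPKM in Cre skin (0.50 ± 0.074, adjusted p = 0.0041). All 4 DTR libraries were higher than all 4 Cre libraries. Mast cell markers moved the same way: 9 of 9 tested passed as higher, and their sum was 202 to 246 FPKM in DTR skin and 69.3 to 90.3 FPKM in Cre skin. Their part in the Serpinb1a result was not tested. Of the 12 members that averaged 1 FPKM in some mast cell group, 9 were tested in skin: Serpinb1a was higher, Serpinb6a and Serpinb2 were lower, and 6 did not pass. Among those 6 were Serpinb9, Serpinb1c and Serpina3g, with differences of 0.0042, -0.026 and -0.063. Serpinb9 measured 1.56, 1.89, 1.67 and 1.89 FPKM in DTR skin and 1.54, 1.64, 1.93 and 1.87 FPKM in Cre skin, and the groups overlapped. Serpina3g measured 2.93, 2.42, 2.66 and 2.41 FPKM in DTR skin and 2.95, 2.90, 2.88 and 2.35 FPKM in Cre skin, again overlapping.

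In clade A, Serpina3n fell to 9.003, 8.91, 8.35 and 9.10 FPKM in DTR skin against 15.9, 10.7, 14.5 and 13.03 FPKM in Cre skin (-0.55 ± 0.10, adjusted p = 0.00757). Serpina3c, a further Serpina3 copy, fell to 2.50, 2.22, 2.0 and 2.83 FPKM in DTR skin against 4.12, 4.03, 4.57 and 3.38 FPKM in Cre skin (-0.57 ± 0.092, adjusted p = 0.00572). Neither pair of groups overlapped. Markers of fat and muscle were lower in the same libraries. Of 6 adipocyte markers 5 fell, summing to 201 to 233 FPKM in DTR skin and 442 to 542 FPKM in Cre skin. All 6 skeletal muscle markers fell, summing to 565 to 771 FPKM in DTR skin and 1092 to 2571 FPKM in Cre skin. Their part in the serpin differences was not tested.

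On chromosome 1, Serpinb2 fell to 90.3, 97.9, 86.9 and 82.7 FPKM in DTR skin against 118, 124, 104 and 125 FPKM in Cre skin (-0.39 ± 0.068, adjusted p = 0.0081). Serpinb13 rose to 9.06, 8.46, 9.58 and 8.86 FPKM in DTR skin against 7.60, 7.86, 6.23 and 7.26 FPKM in Cre skin (0.28 ± 0.067, adjusted p = 0.0241). Serpinb3b rose to 57.5, 59.1, 62.8 and 63.6 FPKM in DTR skin against 57.03, 53.4, 48.7 and 50.99 FPKM in Cre skin (0.21 ± 0.055, adjusted p = 0.0336). Summed keratinocyte markers were also higher in DTR skin, with 1 of 6 basal and 1 of 6 suprabasal markers past the test. The basal sum was 5439.9 to 5875 FPKM in DTR skin and 4950.0 to 5259 FPKM in Cre skin, and the suprabasal sum 12957 to 13918 FPKM in DTR skin and 11340.3 to 12282 FPKM in Cre skin, with a median log2 difference of 0.16 over the basal and 0.12 over the suprabasal markers. Their part in the serpin differences was not tested. Serpine2, protease nexin 1, was just short of the test, with 13.6, 14.1, 15.7 and 16.02 FPKM in DTR skin and 17.9, 15.5, 18.4 and 20.1 FPKM in Cre skin (-0.26 ± 0.078, adjusted p = 0.0518). It passed as lower after median centring (0.0451) and with a 5 FPKM filter (0.0483).

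Serpinb13, Serpinb6a and Serpinb3b were calls that did not hold throughout. Serpinb13 was lost without DTR library 1 (adjusted p = 0.0585) or 3 (0.0603), and Serpinb6a without DTR library 1 (0.0602) or 2 (0.0664). Without the filter on low genes all 3 were lost (0.0509 for Serpinb13, 0.051 for Serpinb6a and 0.0585 for Serpinb3b). Serpinb3b was lost without DTR library 2, 3 or 4 or without Cre library 2, 3 or 4 (adjusted p of 0.058 to 0.0794) and after median centring (0.0658). With a spread estimated over all 4 skin groups, 5 of the 9 passed, and Serpinb2 (0.0753), Serpina3c (0.0972), Serpinb3b and Serpinb6a did not. Leaving out 1 library brought Serpine2 (without Cre 2), Serpina3b and Serpinb10 (without DTR 2), Serpinb3a (without DTR 1) or Serpinb11 (without Cre 1) past the test, with adjusted p-values of 0.0244, 0.0153, 0.035, 0.0473 and 0.0388.

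The proteases that serpins can meet were set beside them. Of 16 leukocyte and mast cell serine proteases 4 could be tested in skin and all 4 were higher in DTR skin, with a median log2 difference of 1.27. Among them were the chymases Mcpt4 (102 FPKM in DTR and 30.6 FPKM in Cre skin) and Cma1 (50.8 FPKM in DTR and 20.4 FPKM in Cre skin) and the tryptase Tpsb2 (19.6 FPKM in DTR and 7.59 FPKM in Cre skin), all 3 of which are also mast cell markers. Of 13 kallikreins and epidermal proteases tested, Klk10 rose (26.2 FPKM in DTR and 16.2 FPKM in Cre skin) and Klk5 fell (64.8 FPKM in DTR and 76.6 FPKM in Cre skin), and 11 did not pass. Of 17 genes of coagulation, fibrinolysis and complement, Thbd alone passed, as lower. Of 18 other protease inhibitors 3 rose and 3 fell, including A2m (7.27 FPKM in DTR and 12.9 FPKM in Cre skin) and Timp4 (6.09 FPKM in DTR and 12.8 FPKM in Cre skin), which fell, and Spink5 (125 FPKM in DTR and 103 FPKM in Cre skin), the kallikrein inhibitor of epidermis, which rose. Of 19 collagen and collagen-processing genes, the partners of Serpinh1, 3 fell and none rose. Of 10 cysteine proteases tested, 1 rose and 1 fell.

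**Figure D4:**
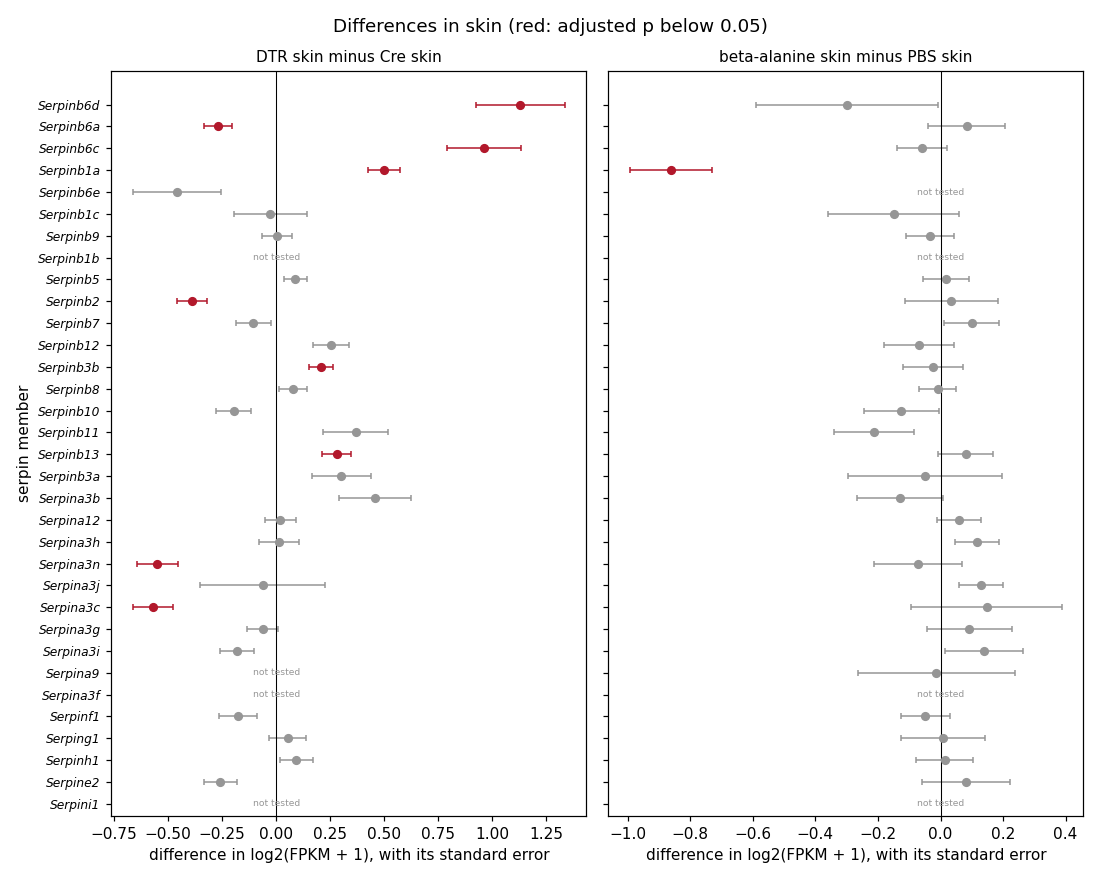
Points give the difference in log2(FPKM + 1) and bars its standard error (8 libraries per comparison), for DTR minus Cre skin on the left and β-alanine minus PBS skin on the right. Red marks an adjusted p below 0.05: 9 members on the left and Serpinb1a alone on the right, at -0.86.

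β-alanine, an agonist of MrgprD, was put on wild-type ears. Of 30 members tested 1 passed, where 0.212% of 12709 genes passed (0.0157% higher and 0.197% lower). Serpinb1a fell to 11.2, 7.37, 10.6 and 11.1 FPKM in β-alanine skin against 20.2, 16.2, 21.6 and 17.9 FPKM in PBS skin, and the groups did not overlap. The log2 difference was -0.86 ± 0.13 (SE, adjusted p = 0.0327, limma). Mast cell markers were lower in the same libraries: 6 of 9 tested fell, and their sum was 5.08 to 8.51 FPKM in β-alanine skin and 213 to 262 FPKM in PBS skin. All 6 leukocyte and mast cell proteases tested fell, among them the chymases Mcpt2 (0.401 FPKM in β-alanine and 138 FPKM in PBS skin) and Cma1 (1.12 FPKM in β-alanine and 78.7 FPKM in PBS skin) and the tryptase Tpsb2 (0.151 FPKM in β-alanine and 19.5 FPKM in PBS skin). The mean of Serpinb1a in β-alanine skin was 0.530 times that in PBS skin. Serpinb1a FPKM per 100 FPKM of the marker sum averaged 150.1 ± 55.2 in β-alanine skin and 8.30 ± 0.677 in PBS skin (SD, n = 4 each). It averaged 6.88 ± 0.483 in DTR skin and 13.4 ± 0.335 in Cre skin. The part of mast cell RNA in the Serpinb1a level was not tested.

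None of the other 29 members passed. Serpinb5, Serpinb2 and the other epithelial serpins of chromosome 1 were among them. Serpinb2 measured 98.7, 150.1, 161 and 133 FPKM in β-alanine skin and 123, 118, 157 and 125 FPKM in PBS skin. For Serpinf1 the values were 157, 135, 142 and 149 FPKM in β-alanine skin and 137, 143, 161 and 162 FPKM in PBS skin. For Serping1 they were 118, 76.97, 80.2 and 78.1 FPKM in β-alanine skin and 78.2, 95.4, 91.9 and 81.5 FPKM in PBS skin, with β-alanine library 1 above the rest. Serpine2 was highest in the same library, at 33.8, 22.3, 23.3 and 22.7 FPKM in β-alanine skin and 20.9, 27.9, 25.6 and 21.2 FPKM in PBS skin. Serpinh1 measured 53.6, 42.4, 39.9 and 42.9 FPKM in β-alanine skin and 45.8, 44.8, 40.2 and 45.4 FPKM in PBS skin. The epidermal proteases, the coagulation and complement list, the collagen list and the other protease inhibitors had no gene past the test (13, 18, 19 and 19 tested). Of members also seen in mast cells, Serpinb6a measured 139, 94.9, 127 and 110.2 FPKM in β-alanine skin and 114, 117, 118 and 91.8 FPKM in PBS skin. Serpinb9 measured 1.95, 1.53, 1.62 and 1.55 FPKM in β-alanine skin and 1.84, 1.64, 1.71 and 1.70 FPKM in PBS skin. Serpina3g measured 4.71, 4.93, 2.74 and 4.10 FPKM in β-alanine skin and 3.62, 4.07, 3.90 and 3.36 FPKM in PBS skin. In all of these the groups overlapped, as they did for Serpina3n with 20.6, 18.2, 13.5 and 23.9 FPKM in β-alanine skin and 19.2, 19.2, 21.7 and 18.9 FPKM in PBS skin. The Serpinb1a call was lost without β-alanine library 3 (adjusted p = 0.0994) or 4 (0.0734), without PBS library 1 (0.127), 3 (0.142) or 4 (0.0808), and without the filter on low genes (0.0881).

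Sorted mast cells of DTR and Cre mice differed more. Of 8 members tested 7 passed, 6 higher and 1 lower in DTR cells, where 35.8% of 8871 genes passed (18.9% higher and 16.9% lower). The filter shaped this count: Serpinb1b, Serpinb1c and Serpinb9 reached 1 FPKM in DTR libraries only and Serpine2 in Cre libraries only, so these 4 had to differ. The median gene differed by 0.13 on the log2 scale, and after centring on each library's median 7 passed with 47.5% of all genes. The remaining member, Serpinf1, did not pass (-0.51 ± 0.62, adjusted p = 0.546).

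Serpinb1a measured 2319, 2411, 1521 and 1520.5 FPKM in DTR sorted cells and 668, 899, 881 and 972 FPKM in Cre sorted cells. All DTR libraries were above all Cre libraries, and the difference was 1.16 ± 0.26 (SE, adjusted p = 0.00142, limma). Without the filter on low genes this call was lost (adjusted p = 0.0608). Serpinb6a measured 45.8, 52.5, 34.9 and 32.7 FPKM in DTR and 20.1, 20.9, 22.6 and 26.1 FPKM in Cre sorted cells, a difference of 0.84 ± 0.23 (adjusted p = 0.00642). For both genes DTR libraries 1 and 2 were the higher pair. Total FPKM of DTR sorted libraries 1 to 4 split likewise, at 191700, 185400, 117600 and 126000. The part of these totals was not tested. Serpinb9 measured 2.75, 1.32, 2.0 and 2.61 FPKM in DTR and 0.695, 0.818, 0.798 and 0.00723 FPKM in Cre sorted cells (1.02 ± 0.24, adjusted p = 0.00269). The low copies Serpinb1b and Serpinb1c moved with Serpinb1a. Serpinb1b measured 2.59, 2.21, 2.03 and 2.17 FPKM in DTR and 0.558, 0.508, 0.549 and 0.854 FPKM in Cre sorted cells (1.01 ± 0.21, adjusted p = 0.000678). Serpinb1c measured 2.06, 2.18, 1.42 and 1.47 FPKM in DTR and 0.299, 0.430, 0.597 and 0.811 FPKM in Cre sorted cells (0.86 ± 0.21, adjusted p = 0.00328). Serpinb1a was far above both, and whether some of their reads came from Serpinb1a was not tested. Serpini1 measured 2.91, 1.48, 1.15 and 1.32 FPKM in DTR and 0.563, 1.41, 0.398 and 0.00787 FPKM in Cre sorted cells. Its groups overlapped (0.79 ± 0.26, adjusted p = 0.0232), and the call was lost without DTR library 1 (0.123) or 2 (0.0561) or Cre library 3 (0.0553), with a pseudocount of 0.1 (0.0531) and without the filter (0.157).

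Serpine2, an inhibitor of thrombin and plasminogen activators, fell to 0.199, 0.265, 0.322 and 0.503 FPKM in DTR sorted cells against 9.33, 10.7, 8.998 and 6.51 FPKM in Cre sorted cells. This was the largest serpin difference of the sorted cells, -2.89 ± 0.23 (adjusted p = 4.21e-09). The 4 cultured groups averaged 0.0594 to 0.195 FPKM, so that the Cre sorted cells alone among the 6 mast cell groups were above 1 FPKM. Marker lists named for other cells moved with it. Basophil markers fell in 5 of 7, with sums of 156 to 254 FPKM in DTR and 641 to 990.3 FPKM in Cre sorted cells. The same list had mean sums of 629 FPKM (NS102 48 h) to 1100 FPKM (glutamate 6 h) in the cultured mast cell groups. Gene by gene, 5 of the 7 were higher and 2 lower in Cre sorted than in vehicle 48 h cultured cells. Neutrophil markers summed to 0.0601 to 0.235 FPKM in DTR and 51.6 to 252 FPKM in Cre sorted cells. Macrophage and monocyte markers summed to 7.08 to 17.7 FPKM in DTR and 41.5 to 51.3 FPKM in Cre sorted cells. The mast cell marker sum was higher, 18222 to 29875 FPKM in DTR and 9895 to 14686 FPKM in Cre sorted cells, with 6 of 11 markers up, 2 down and 3 not past the test. The T and NK cell list, which includes Gzmb, summed to 6.61 to 17.2 FPKM in DTR and 23.7 to 85.3 FPKM in Cre sorted cells, and both of its tested genes fell. The part of these cell types in the serpin differences was not tested. Serpinb1a FPKM per 100 FPKM of the mast cell sum averaged 8.18 ± 0.417 in DTR and 7.09 ± 0.781 in Cre sorted cells (SD, n = 4 each). Without Cre library 4 and DTR library 3, the libraries highest in fibroblast markers, the count of 7 stayed, with 6 higher and 1 lower. That alternative was chosen after seeing the marker sums.

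Proteases changed in both directions. Of 10 leukocyte and mast cell proteases tested 6 rose and 3 fell in DTR sorted cells. The 3 with the smallest p, Mcpt8, Prss34 and Gzmb, all fell. Mcpt8 averaged 2.11 FPKM in DTR and 343 FPKM in Cre sorted cells. Prss34 averaged 0.786 FPKM in DTR and 42.7 FPKM in Cre sorted cells. Mcpt8 and Prss34 are both on the basophil marker list. Gzmb (granzyme B, the target of Serpinb9) averaged 0.719 FPKM in DTR and 16.5 FPKM in Cre sorted cells. Of 7 other protease inhibitors 3 fell and 1 rose, and Slpi, the secretory leukocyte protease inhibitor, fell to 0.0413 FPKM in DTR against 37.6 FPKM in Cre sorted cells. Spint2 fell to 0.152 FPKM in DTR against 10.6 FPKM in Cre sorted cells. Of 5 tested genes of coagulation and fibrinolysis, the urokinase receptor Plaur (1.46 FPKM in DTR and 10.7 FPKM in Cre sorted cells) and Plg fell and none rose.

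Whether the ablation difference itself differed between sorted cells and skin was tested by an interaction term over 16 libraries, in which material and sex-linked expression cannot be told apart. Of 31 members tested 10 (32.3%) passed, 7 more positive and 3 more negative in sorted cells, where 27.7% of 13153 genes passed (14.4% higher and 13.3% lower). Serpine2 (-2.63 ± 0.19, adjusted p = 2.47e-08), Serpinb6d (-1.13 ± 0.26, 0.00387) and Serpinb6c (-0.93 ± 0.21, 0.00402) were more negative. Serpinb6a was more positive (1.11 ± 0.20, 0.000636), being higher in DTR sorted cells and lower in DTR skin than in the Cre material. Serpinb9 (1.01 ± 0.25, 0.0059), Serpinb1b (0.97 ± 0.11, 5.21e-06), Serpini1 (0.92 ± 0.29, 0.0272), Serpinb1c (0.88 ± 0.24, 0.0131), Serpinb1a (0.66 ± 0.23, 0.0446) and Serpina3c (0.65 ± 0.14, 0.002) were more positive too. The Serpinb1a term was lost on leaving out any 1 of 12 of the 16 libraries (adjusted p of 0.0509 to 0.0899), all but DTR sorted 3 and 4, Cre sorted 4 and Cre skin 1. The Serpini1 term was lost without DTR sorted library 1 (0.0517) or Cre skin library 3 (0.0519). With a pseudocount of 0.1 the terms of Serpina3c (0.0518), Serpinb1a (0.0615) and Serpinb6c (0.124) were lost, with a pseudocount of 5 that of Serpinb1c (0.0771), and without the filter those of Serpinb1a (0.0707) and Serpini1 (0.0549). On this scale a gene near 0 in 1 material can show almost no difference there, which applies to Serpina3c, Serpinb6c and Serpinb6d in sorted cells. It also applies to Serpinb1b and Serpini1 in skin, where Serpinb1b averaged 0.0764 FPKM in DTR and 0.0464 FPKM in Cre skin and Serpini1 0.0992 FPKM in DTR and 0.202 FPKM in Cre skin. Their terms restate the difference in sorted cells.

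Cultured peritoneal mast cells expressed few serpins, and Serpina3g had the largest log2 differences among them in all 3 comparisons within culture. Glutamate for 6 h was tested in 5 members, all at 1 FPKM or more in all 8 libraries. All 5 passed, 2 higher and 3 lower, where 79.3% of 8297 genes passed (16.9% higher and 62.4% lower), so the share says little about serpins. The median gene differed by -0.33 in glutamate cells. Centred on each library's median, Serpina3g and Serpinb2 stayed higher (44.6% of all genes were) and the other 3 no longer passed. Serpina3g measured 20.1, 21.7, 20.4 and 21.9 FPKM with glutamate and 9.24, 7.24, 9.23 and 10.1 FPKM with vehicle. The groups did not overlap, and the difference was 1.15 ± 0.08 (SE, adjusted p = 2.44e-08, limma) or 1.56 after centring (1.32e-08). Serpinb2 measured 1.76, 1.67, 1.76 and 1.79 FPKM with glutamate and 1.58, 1.30, 1.43 and 1.01 FPKM with vehicle (0.24 ± 0.08, adjusted p = 0.0126).

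Serpinb1a measured 791, 819, 828 and 793 FPKM with glutamate and 1003, 1039.6, 1028 and 1023 FPKM with vehicle, -0.34 ± 0.028 as deposited and 0.071 after centring (adjusted p = 0.1). Serpinb6a measured 94.8, 98.7, 97.4 and 96.03 FPKM with glutamate and 128, 128, 127 and 128 FPKM with vehicle, -0.40 ± 0.03 as deposited and 0.015 after centring (0.701). Serpinb9 measured 2.96, 2.57, 2.78 and 2.92 FPKM with glutamate and 4.10, 3.97, 4.03 and 4.06 FPKM with vehicle, -0.40 ± 0.063 as deposited and 0.0078 after centring (0.913). All 3 were lower in every glutamate library, by amounts near the shift of the whole table. Serpina3f, not tested here for its low level, measured 1.19, 1.15, 0.905 and 1.01 FPKM with glutamate and 0.531, 0.356, 0.393 and 0.225 FPKM with vehicle. Of 10 mast cell and leukocyte proteases tested 6 rose and 3 fell. The tryptase Tpsb2 rose (53601 FPKM with glutamate and 38223 FPKM with vehicle), as did Prss34 (778 FPKM with glutamate and 493 FPKM with vehicle), while the tryptase Tpsab1 fell (234 FPKM with glutamate and 377 FPKM with vehicle). Serpinb1a FPKM per 100 FPKM of the mast cell marker sum averaged 0.862 ± 0.0146 with glutamate and 1.48 ± 0.0298 with vehicle (SD, n = 4 each). Of 9 other protease inhibitors 3 rose and 4 fell, and the cystatin Cst3 rose with the smallest p (1802 FPKM with glutamate and 1269 FPKM with vehicle).

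NS102 for 48 h was tested in 5 members. Of these 4 passed, 1 higher and 3 lower, where 70.5% of 8373 genes passed (30.8% higher and 39.7% lower), so the share is again near the table's own. Serpina3g fell to 93.2, 96.5, 113 and 93.1 FPKM with NS102 against 222, 221, 229 and 205 FPKM with vehicle (-1.14 ± 0.066, adjusted p = 4.69e-08). Serpina3f fell with it, to 1.86, 2.04, 2.63 and 2.19 FPKM with NS102 against 4.80, 3.99, 4.05 and 3.73 FPKM with vehicle (-0.69 ± 0.093, 2.99e-05). Serpinb9 fell to 2.70, 2.76, 2.53 and 1.90 FPKM with NS102 against 4.27, 4.68, 4.04 and 4.04 FPKM with vehicle (-0.60 ± 0.092, 8.9e-05). None of the 3 overlapped. Serpinb6a rose to 88.4, 90.1, 86.1 and 89.1 FPKM with NS102 against 67.7, 67.7, 72.6 and 67.6 FPKM with vehicle (0.36 ± 0.046, 2.23e-05). Serpinb1a measured 962, 940.3, 911 and 913 FPKM with NS102 and 921, 909, 933 and 850.5 FPKM with vehicle, and did not pass (0.045 ± 0.053, adjusted p = 0.467). Serpinb2, too low to be tested, measured 0.182, 0.234, 0.137 and 0.239 FPKM with NS102 and 0.728, 0.536, 0.837 and 0.893 FPKM with vehicle.

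Proteases of mast cells mostly rose with NS102, 8 of 11 tested, and 2 fell. Tpsab1 measured 392 FPKM with NS102 and 68.9 FPKM with vehicle, and the tryptase Tpsg1 556 FPKM with NS102 and 226 FPKM with vehicle. Granzyme B, which Serpinb9 inhibits, measured 567 FPKM with NS102 and 223 FPKM with vehicle. Of 6 other inhibitors tested 4 fell, among them Timp3 (1.26 FPKM with NS102 and 3.98 FPKM with vehicle) and Slpi (33.3 FPKM with NS102 and 66.1 FPKM with vehicle), and Spint1 rose (22.9 FPKM with NS102 and 11.5 FPKM with vehicle).

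**Figure D5:**
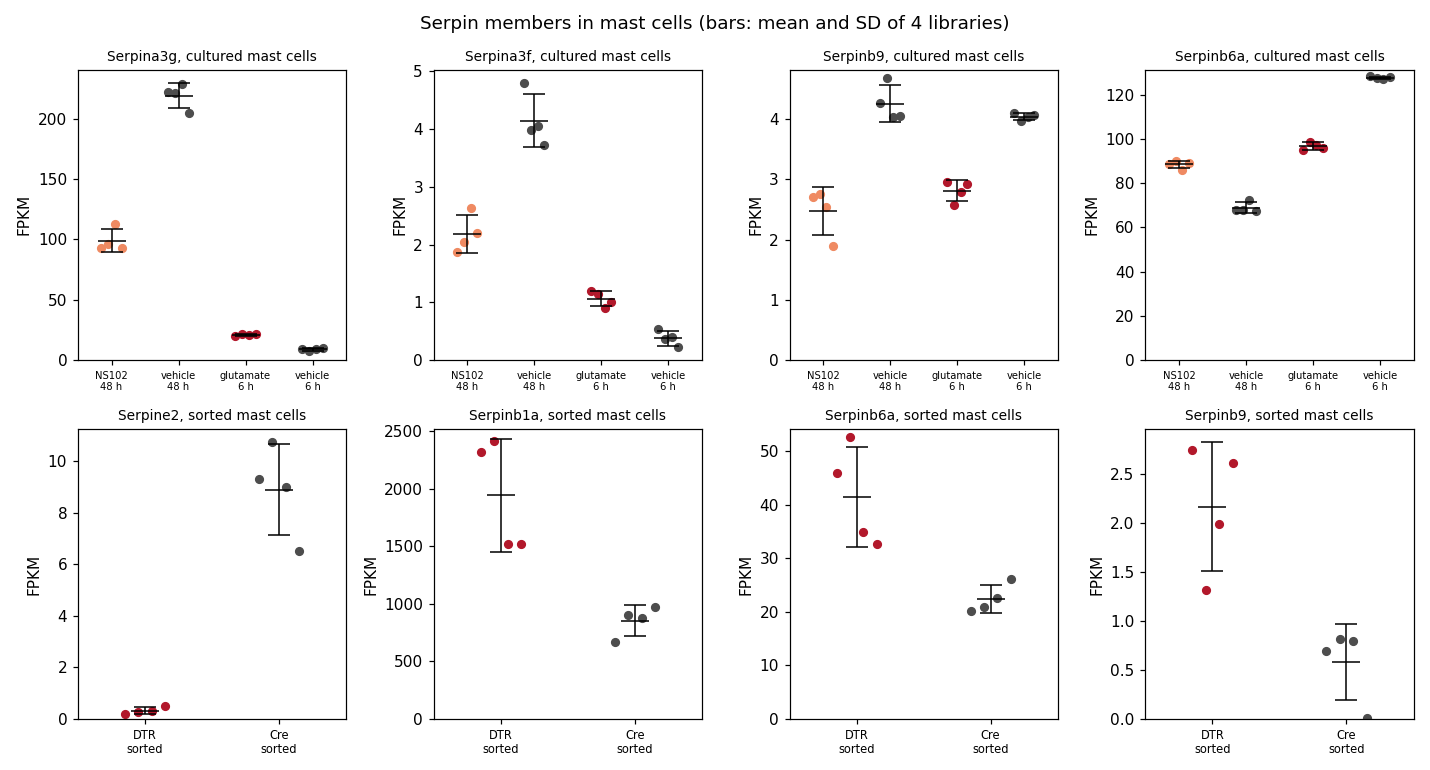
The upper row gives 4 members in the cultured groups and the lower row 4 members in the sorted groups, in FPKM on axes from 0. Points are libraries and bars the mean and SD of 4. Serpina3g stands at 93.1 to 113 FPKM with NS102, 205 to 229 FPKM with vehicle at 48 h, 20.1 to 21.9 FPKM with glutamate and 7.24 to 10.1 FPKM with vehicle at 6 h, and Serpine2 at 0.199 to 0.503 FPKM in DTR and 6.51 to 10.7 FPKM in Cre sorted cells.

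The 2 vehicle groups differed in Serpina3g by a larger log2 difference than either treatment. It measured 222, 221, 229 and 205 FPKM after 48 h and 9.24, 7.24, 9.23 and 10.1 FPKM after 6 h (4.47 ± 0.077, adjusted p = 6.56e-15). Serpina3f measured 4.80, 3.99, 4.05 and 3.73 FPKM after 48 h and 0.531, 0.356, 0.393 and 0.225 FPKM after 6 h (1.90 ± 0.087, 1.35e-10). Of 6 members tested 2 were higher and 3 lower at 48 h, where 71.9% of 8467 genes passed (34.2% higher and 37.7% lower). Serpina3f reached 1 FPKM in 48 h libraries only and Serpinb2 in 6 h libraries only. The filter thus fixed the direction of both. Serpinb6a was lower at 48 h, with 67.7, 67.7, 72.6 and 67.6 FPKM against 128, 128, 127 and 128 FPKM at 6 h (-0.88 ± 0.04, 1.37e-10). Serpinb1a was lower as well (-0.18 ± 0.038, 0.000681), and so was Serpinb2 (-0.41 ± 0.091, 0.000924). Serpinb9 did not pass (0.059 ± 0.068, 0.446). The 6 h cells stood in Tyrode's buffer and the medium of the 48 h cells is not given in the sources used here, so time and medium cannot be told apart. This comparison shares its vehicle libraries with the glutamate and NS102 comparisons.

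Serpina3g and Serpina3f lie side by side on chromosome 12, and their deposited intervals share a start (chr12:105452753-105480144 and chr12:105452753-105459339 in mm9), so the division of reads between them is uncertain. Of the 50-base words of their transcripts 16.02% and 10.73% occur in other genes, 6.003% of those of Serpina3f in Serpina3g. Because they moved together in culture, their promoters are shown, 250 bases before to 50 after the start, from RefSeq (GRCm38.p6, plus strand). Serpina3g is at chr12:104235897-104236196 and the first of 2 listed starts of Serpina3f at chr12:104214294-104214593. Of the 34 members 28 had an entry in that table. Capitals mark matches to TTCNNNGAA, the motif of STAT factors, and in Serpina3g also to the GATA motif AGATAA on the minus strand.
Serpina3g: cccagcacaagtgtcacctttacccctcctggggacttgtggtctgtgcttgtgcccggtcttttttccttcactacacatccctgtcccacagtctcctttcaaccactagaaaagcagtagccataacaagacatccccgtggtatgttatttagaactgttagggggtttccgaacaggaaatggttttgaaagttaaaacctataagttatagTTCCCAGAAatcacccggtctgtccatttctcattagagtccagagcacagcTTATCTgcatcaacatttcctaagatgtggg
Serpina3f: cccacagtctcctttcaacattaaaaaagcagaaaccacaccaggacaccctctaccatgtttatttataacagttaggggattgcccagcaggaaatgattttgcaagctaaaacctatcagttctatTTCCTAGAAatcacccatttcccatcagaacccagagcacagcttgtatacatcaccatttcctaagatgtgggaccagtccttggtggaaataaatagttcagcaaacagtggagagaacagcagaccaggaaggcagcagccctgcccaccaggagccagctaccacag
The STAT motif begins 33 bases before the Serpina3g start and 121 bases before this Serpina3f start, and the GATA match begins at base 20 of the Serpina3g transcript and overlaps no other match. Both strands were searched. Of all 32851 promoters of the same length 8.3% hold TTCNNNGAA and 11.2% hold AGATAA. The motifs TGANTCA (AP-1, in 7.81% of promoters), TGACG (the core of the cyclic AMP response element, 20.8%) and CACGTG (an E-box, 7.15%) were not in either window. A match is a stretch of letters and not a measured binding site. In a local alignment the windows matched in 169 of 214 columns (79%).

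Cre sorted cells were last set against vehicle 48 h cultured cells, which differ in origin (skin and peritoneum), strain, sex-linked expression and handling. Of 6 members tested 1 was higher and 4 lower in sorted cells, where 73.9% of 8740 genes passed (21.5% higher and 52.4% lower), and the median gene differed by -0.51. Serpine2, Serpina3f and Serpinb9 passed the filter through 1 group alone. After median centring 1 was higher and 4 lower as before, with 70.4% of all genes past the test. Serpina3g measured 0.0176, 3.03, 2.03 and 0 FPKM in Cre sorted cells against 222, 221, 229 and 205 FPKM in vehicle 48 h cells (-6.87 ± 0.41, adjusted p = 1.86e-07). In DTR sorted cells Serpina3g measured 0.0157, 0, 0.0827 and 0.0398 FPKM. Serpina3f measured 0.103, 0.750, 0.0265 and 0 FPKM in Cre sorted cells against 4.80, 3.99, 4.05 and 3.73 FPKM in vehicle 48 h cells (-2.11 ± 0.19, 2.78e-06). Both Serpina3 genes were highest in Cre sorted library 2, the library with red blood cell RNA, whose part was not tested. Serpinb6a (22.4 FPKM in Cre sorted and 68.9 FPKM in cultured cells) and Serpinb9 (0.580 FPKM in Cre sorted and 4.26 FPKM in cultured cells) were also lower in sorted cells. Serpine2 was higher (8.89 FPKM in Cre sorted and 0.0620 FPKM in cultured cells, 3.20 ± 0.16, 5.27e-08). Serpinb1a averaged 855 ± 131 FPKM in Cre sorted and 903 ± 36.6 FPKM in vehicle 48 h cells (SD, n = 4 each), and did not pass (-0.092 ± 0.12, adjusted p = 0.501).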

How the data were processed

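RNA-seq was measured in 40 mouse libraries. The table deposited by the authors holds FPKM. The submitters' processing notes name STAR, Cufflinks and the build mm9; versions and settings are not given in the sources used here, and the FPKM unit is read from those tools, since the header names none. Tests used log2(FPKM + 1), limma 3.58.1 in R 4.3.3 with a mean trend, genes with at least 1 FPKM in 4 of the 8 libraries compared, and Benjamini-Hochberg adjustment over all genes tested, called below 0.05. Differences on this scale understate the change of low genes. The fit was tested on simulated data with normal noise and 200 changed genes, all well above 1 FPKM. That test does not speak to members near 1 FPKM, and its outcome is not given here. Low FPKM values gave relative depths of 0.574 to 1.41 times that of replicate 1 of the same group, but only 55.7% to 78.3% of ratios were whole (within 0.03 on the log2 scale, against 20.3% at other offsets), so no counts were recovered. Single and paired end libraries are not told apart in the labels. No 2 libraries held identical values.

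Members were followed in 9 comparisons of groups and 1 interaction over 16 libraries. Alternatives were pseudocounts of 0.1 and 5, no filter, a 5 FPKM filter, median centring, a shared spread, a replicate block and leaving out each library. Leaving out the sorted libraries highest in fibroblast markers was added after seeing the data. Per-library values are given for up to 6 called members with the largest difference per comparison and direction, at 1 FPKM or more in the higher group, and for a fixed set of well-known members; other gene lists are counted, with up to 3 genes of smallest p. Promoters came from RefSeq (GRCm38.p6) and transcripts from GENCODE M21. The members, lists and tests were chosen with earlier results of these data known. Of the 34 members 1 counts in the totals but is not reported here. Figures were drawn with Python 3.11.15 and matplotlib 3.10.9.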

Additional observations from a re-analysis of the deposited data

Results flagged for a closer look

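In 11 of the 153 sets of 4 libraries of a member, 1 library stood far from the other 3 by Dixon's criterion, which chance meets in about 1 set in 20. In β-alanine skin these were Serpine2 in β-alanine skin library 1 (33.8 FPKM, the other 3 at 22.3 to 23.3 FPKM), Serping1 in β-alanine skin library 1 (118 FPKM, the other 3 at 76.97 to 80.2 FPKM), Serpinb1c in β-alanine skin library 2 (4.26 FPKM, the other 3 at 1.64 to 1.92 FPKM) and Serpinb1a in β-alanine skin library 2 (7.37 FPKM, the other 3 at 10.6 to 11.2 FPKM). In PBS skin they were Serpinh1 in PBS skin library 3 (40.2 FPKM, the other 3 at 44.8 to 45.8 FPKM), Serpina3h in PBS skin library 4 (47.2 FPKM, the other 3 at 39.3 to 40.5 FPKM), Serpina12 in PBS skin library 2 (79.6 FPKM, the other 3 at 67.7 to 69.4 FPKM), Serpina3n in PBS skin library 3 (21.7 FPKM, the other 3 at 18.9 to 19.2 FPKM) and Serpinb6a in PBS skin library 4 (91.8 FPKM, the other 3 at 114 to 118 FPKM). The others were Serpina3g in Cre skin library 4 (2.35 FPKM, the other 3 at 2.88 to 2.95 FPKM) and Serpinb6a in vehicle 48 h cells library 3 (72.6 FPKM, the other 3 at 67.6 to 67.7 FPKM).

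The DTR minus Cre difference in sorted cells differed from that in skin by the interaction term (limma) for 10 of 31 members tested (32.3%). Of all 13153 genes tested 27.7% passed, so the share lies near the table's own. On the log2 scale the excess in sorted cells was -2.63 for Serpine2, -1.13 for Serpinb6d and -0.93 for Serpinb6c. It was 1.11 for Serpinb6a, 1.01 for Serpinb9, 0.97 for Serpinb1b, 0.92 for Serpini1, 0.88 for Serpinb1c, 0.66 for Serpinb1a and 0.65 for Serpina3c. Serpina3c, Serpinb6c and Serpinb6d were very low in sorted cells, as were Serpinb1b and Serpini1 in skin. Their terms mostly restate the difference in the other material. The Serpinb1a term was lost on leaving out most single libraries, as given above.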

How the results depend on the processing

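Of 104 called member results, 76 kept direction and call under all alternatives. Over 1717 alternative values of called members, 1649 kept both, 58 no longer passed and 10 changed sign. Of 1364 values of members not called, 22 passed. The sign changes all came with median centring: glutamate gave 0.0078 for Serpinb9, 0.071 for Serpinb1a and 0.015 for Serpinb6a. Cre sorted cells against skin gave 0.60 for Serpine2, 0.032 for Serpinb3a, 0.21 for Serpina3i and 0.72 for Serpinb9. DTR sorted cells against skin gave 0.38 for Serpina3i, 0.81 for Serpinb1c and 0.51 for Serpinb6a. Centring also cut the glutamate count from 5 to 2.

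Counts of members past the test moved as follows. With a 5 FPKM filter, which tests fewer genes, they were 3 of 7 in sorted DTR against Cre cells, 3 of 5 with glutamate, 2 of 4 with NS102, 3 of 5 in sorted against cultured cells, 3 of 5 in vehicle 48 h against 6 h and 5 of 10 in the interaction. Without a filter they were 0 of 1 for β-alanine, 8 against 5 for glutamate and 9 against 5 for vehicle 48 h against 6 h. A spread shared by all skin groups gave 5 of 9 in DTR against Cre skin, and the cause was not tested. Leaving out 1 library gave 7 to 10 in DTR against Cre skin, 0 to 1 for β-alanine, 6 to 7 in sorted DTR against Cre cells, 5 to 6 for glutamate, 4 for NS102, 28 to 29 in Cre and 30 to 31 in DTR sorted cells against skin, 5 in sorted against cultured cells, 5 in vehicle 48 h against 6 h and 8 to 11 in the interaction.

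Whether replicate numbers pair the libraries could not be settled. In no comparison did all 4 same-numbered pairs correlate above 0.1. Single pairs reached 0.374 (β-alanine and PBS skin, replicate 3) and 0.463 (vehicle 48 h and 6 h cells, replicate 1). The replicate block gave 9 members in DTR against Cre skin (Serpinb13, adjusted p = 0.0517, and Serpinb3b, 0.0691, no longer passed, and Serpine2, 0.0256, and Serpina3b, 0.0421, did), 1 for β-alanine, 7 in sorted DTR against Cre cells, 5 for glutamate, 4 for NS102, 29 in Cre (with Serpina3g, 0.0345) and 30 in DTR sorted cells against skin, 5 in sorted against cultured cells, 5 in vehicle 48 h against 6 h and 9 in the interaction (without Serpinb1a, 0.06). Without the libraries highest in fibroblast markers, 7 passed in sorted cells. The read counts behind the FPKM values are unknown, which limits members near 1 FPKM most.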
